A study of Homo sapiens with 12 samples.

Results

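The 41 genes described here are interferon-stimulated genes, listed by gene symbol and looked up in the first column of the count files. All 41 were among the 26485 genes listed, and 40 passed the filter on low counts that left 16373 genes to be tested. The remaining member, IFI44L, reached at most 0.572 CPM in any library and was not tested. RNA-seq was performed on 12 libraries in 6 groups of 2. A549 is a human lung adenocarcinoma line, and BEAS-2B (B2B) is an immortalised, non-cancerous human bronchial epithelial line. In each line, 1 group was treated with SP600125, an inhibitor of the Jun kinase JNK, at 50 µM for 72 h, 1 group with SR11302, an inhibitor of the transcription factor AP-1, at 10 µM for 72 h, and 1 group was untreated (NT). The labels give no added agent for the NT groups, while the study's legends speak of DMSO controls, so whether the NT cells received the solvent is not settled here. The comparisons ask how the inhibitors changed each line and how the lines differed without treatment. Each line is a single line, so a difference between lines cannot be told apart from other differences between these 2 cultures, and nothing states that the 2 replicates of a group came from separate experiments, so the p-values measure only the spread between libraries, which may be technical.

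Type I and type III interferons bind receptors at the cell surface and activate the kinases JAK1 and TYK2, which phosphorylate STAT2 among others. STAT2 and IRF9 are parts of ISGF3, a complex that binds the interferon-stimulated response element (ISRE) in the promoters of its target genes. Interferon gamma acts mainly through another promoter element, the gamma-activated site (GAS). In airway epithelium the products of these genes sense viral RNA, block viral entry, translation and budding, and feed back on the pathway, and many of the genes keep a low level of transcription without added interferon.

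Promoter sequence was available for 32 of the 41 members in the RefSeq table (GRCh38.p14), as windows of 300 bases, 250 before and 50 after the annotated start. The ISRE core, spelled GAAA, NN and GAAA without a gap and searched on both strands, was found in 20 of these 32 windows (62.5%), against 3.57% of all 35116 windows. The GAS, TTCNNNGAA on both strands, was found in 9 (28.1%), against 7.66% of all windows. The AP-1 site, TGANTCA on both strands, was found in 3 (9.38%, IFIT5, ISG20 and SAMD9L), against 7.71% of all windows. A match of letters is a description of the window and not evidence of binding, and a window without a match may hold a variant spelling that was not searched. The stretches below are shown because they hold the ISRE core of members whose levels carry the comparisons; each is printed 5′ to 3′ in the direction of transcription, with every core that lies whole in the stretch in capitals. The core nearest to the start begins at base -21 from the start in IFIH1, -74 in HERC5, -103 in IFIT1, -122 in IFIT3, -29 in PARP14, -6 in IFITM1, -35 in IFITM3, 11 in MX1, -107 in ISG15, -136 in SAMD9, -12 in OAS3 and -69 in ISG20, with the start counted as 0. IFIT1, IFITM3 and ISG15 each hold a further core in the stretch, at -116, -52 and -113 in that order, and in ISG15 it overlaps the nearer one.
IFIH1 (chr2:162318676-162318725, minus strand): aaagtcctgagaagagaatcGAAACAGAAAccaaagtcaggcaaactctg
HERC5 (chr4:88457025-88457074, plus strand): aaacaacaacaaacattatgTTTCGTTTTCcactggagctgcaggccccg
IFIT1 (chr10:89392500-89392549, plus strand): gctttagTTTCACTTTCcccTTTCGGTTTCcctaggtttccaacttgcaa
IFIT3 (chr10:89327855-89327904, plus strand): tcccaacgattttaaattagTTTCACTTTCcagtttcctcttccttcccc
PARP14 (chr3:122680790-122680839, plus strand): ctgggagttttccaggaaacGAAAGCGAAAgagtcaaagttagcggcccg
IFITM1 (chr11:314014-314063, plus strand): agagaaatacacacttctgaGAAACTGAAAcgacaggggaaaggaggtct
IFITM3 (chr11:320866-320915, minus strand): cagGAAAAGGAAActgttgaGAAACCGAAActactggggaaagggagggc
MX1 (chr21:41420549-41420598, plus strand): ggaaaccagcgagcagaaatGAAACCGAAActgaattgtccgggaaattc
ISG15 (chr1:1013370-1013419, plus strand): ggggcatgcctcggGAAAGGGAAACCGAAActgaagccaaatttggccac
SAMD9 (chr7:93118086-93118135, minus strand): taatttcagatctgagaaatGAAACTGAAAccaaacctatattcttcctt
OAS3 (chr12:112938442-112938491, plus strand): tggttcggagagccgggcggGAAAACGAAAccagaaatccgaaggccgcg
ISG20 (chr15:88638927-88638976, plus strand): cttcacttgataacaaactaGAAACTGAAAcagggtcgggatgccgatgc

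In HERC5, IFIT1 and IFIT3 the printed cores lie on the opposite strand and begin with TTTC as printed, and in the other stretches they lie on the coding strand. Of the 20 windows with a core, 13 held more than 1. Members of 1 family lie near each other in several places, among them IFIT1, IFIT2, IFIT3 and IFIT5 on chromosome 10, IFITM1, IFITM2 and IFITM3 on chromosome 11, and OAS1, OAS2 and OAS3 on chromosome 12. The pairs HERC5 and HERC6, MX1 and MX2, SAMD9 and SAMD9L, and IFI44 and IFI44L are also neighbours.

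**Figure D1:**
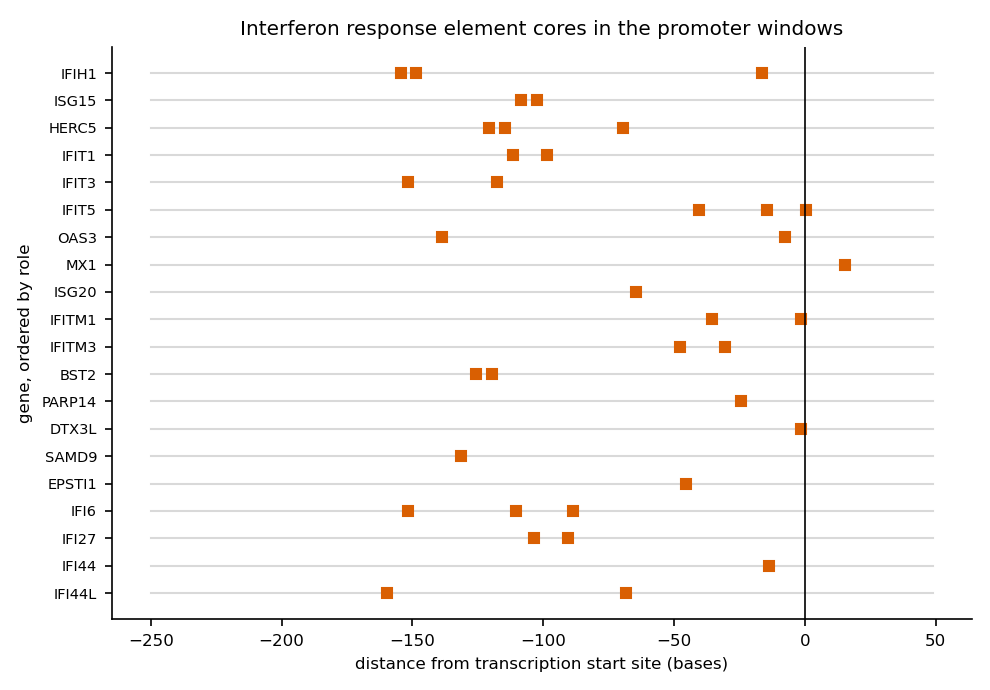
Position of each match to the ISRE core in the promoter windows of the 20 members that hold one, in bases from the RefSeq start (0), 1 line per gene. Of the 20 genes, 13 hold more than 1 match.

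Sequencing depth was 13969766 to 24917854 gene counts per library. Values are CPM, the count scaled to a fixed library total after TMM normalisation, and fold changes are log2 values with their standard error from edgeR's quasi-likelihood fit over all 12 libraries. A gene is called higher or lower at a Benjamini-Hochberg adjusted p under 0.05 over all tested genes together with a log2 fold change of at least 0.5 in size. The fit uses 1 estimate of spread per gene for all groups, but replicates were not equally close in every group. The median chi-square per gene between replicates ranged from 0.89 in B2B NT to 6.67 in SR11302-treated A549, so p-values involving SR11302-treated A549 may understate its own spread. Reads that the counting assigned to no annotated feature made up 14.6 to 20.1% in treated libraries, against 23.8 to 25.9% in NT libraries. Where these reads lie is not known from the tally, and their part in the results was not tested. The epithelial markers CDH1, EPCAM, ELF3, KRT8 and KRT18 summed to 5340 to 13700 CPM in A549 libraries, against 401 to 868 CPM in B2B libraries. The bronchial basal markers KRT5, KRT14 and TP63 summed to at most 0.24 CPM in B2B, against 0.874 to 3.57 CPM in A549, so the labelled bronchial origin of B2B is not visible in them. The mesenchymal markers VIM, SPARC, COL1A2 and SNAI2 summed to 1770 to 4150 CPM in B2B, against 863 to 1240 CPM in A549. The alveolar type II markers SFTPC, SFTPB and NKX2-1 summed to 0.276 to 0.796 CPM in A549, against 1.58 to 4.97 CPM in B2B, with 11 counts of SFTPC over all libraries, so these markers were near 0 in A549. Of the leukocyte markers, CD14 had 544 counts over all libraries and CD3E 0. The plasmacytoid dendritic cell markers CLEC4C, IL3RA and LILRA4 summed to 2.09 to 2.69 CPM and 0.922 to 1.38 CPM in A549 after SP600125 and SR11302, against 3.89 to 3.93 CPM in A549 NT, and to 0.493 to 0.91 CPM in B2B, with 341 counts of IL3RA, 3 of LILRA4 and 0 of CLEC4C. The part of these markers in the results was not tested. In these bulk samples, fewer cells expressing a gene and less RNA per cell cannot be told apart. The NT replicate 2 libraries of both lines hold low amounts of transcripts typical of the other line: 4 genes abundant in A549 reached 0.446 to 0.599% of their A549 NT level in B2B NT replicate 2, against 0 to 0.0658% in replicate 1. In A549 NT replicate 2, SPARC, COL1A2 and SNAI2 reached 0.292 to 1.06% of their B2B NT level, against 0 to 0.0138% in replicate 1, while RGS4 stood at 0 in both.

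Without treatment, most members were lower in A549 than in B2B, and the few that were higher included the RNA-activated enzymes OAS1 and OAS3. Of the 40 tested members, 8 were called higher and 23 lower in A549 NT than in B2B NT. Over all tested genes, 30.4% were called higher and 26.5% lower. The median log2 difference of the members was -1.22, against 0.05 over all genes. At least 1 CPM was reached by 24 members in A549 NT and by 32 members in B2B NT. When the 2 NT replicate 2 libraries were left out the counts were 6 and 23, and without B2B NT replicate 1 the number higher fell to 5.

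OAS1 and OAS3 are oligoadenylate synthetases, which are activated by double-stranded RNA and make the messenger that switches on RNase L. OAS1 had 85.1 and 82.3 CPM in A549 NT, against 0.144 and 0.285 CPM in B2B NT (log2 difference 8.53 ± 0.23, adjusted p = 4.15e-12). The B2B NT libraries held 0.172% and 0.34% of the A549 level, which in replicate 2 is below the 0.446 to 0.599% of the A549-abundant genes and in replicate 1 is above their 0 to 0.0658%. OAS3 had 184 and 194 CPM in A549 NT, against 36.2 and 37.9 CPM in B2B NT (log2 difference 2.35 ± 0.12, adjusted p = 7e-10). The paralogues lie next to each other on chromosome 12 (hg38, OAS1 at 112905856 to 112933219 and OAS3 at 112938051 to 112976460, both on the plus strand), yet the difference between lines was far larger for OAS1. The exonuclease ISG20 had 9.84 and 9.4 CPM in A549 NT, against 1.96 and 1.51 CPM in B2B NT (2.48 ± 0.25, adjusted p = 8.95e-07). HERC6, a HECT-domain protein related to the ISG15 ligase, had 7.34 and 8.55 CPM in A549 NT, against 2.16 and 2.32 CPM in B2B NT (1.82 ± 0.20, adjusted p = 1.92e-06). The ISG15 protease USP18 had 7.95 and 6.58 CPM in A549 NT, against 2.78 and 2.44 CPM in B2B NT (1.48 ± 0.23, adjusted p = 6.07e-05). These 5 genes did not overlap between the lines. IFIH1 and IFI35 were called higher by small margins. IFIH1, the RNA sensor MDA5, had 2.33 and 2.92 CPM in A549 NT, against 1.48 and 1.34 CPM in B2B NT (0.90 ± 0.34, adjusted p = 0.0336), and its adjusted p was 0.17 without A549 NT replicate 2, 0.0737 without B2B NT replicate 1 and 0.128 without B2B NT replicate 2. IFI35 had 12.0 and 11.1 CPM in A549 NT, against 8.19 and 7.78 CPM in B2B NT (0.53 ± 0.20, adjusted p = 0.0286), and its adjusted p was 0.0597 to 0.125 without any 1 of the 4 NT libraries. The log2 difference of IFI35 was 0.498 without B2B SP600125 replicate 1. CMPK2 had 10 counts in A549 NT and 1 in B2B NT (ratio 12.3, counting interval 1.76 to 536), and its adjusted p was 0.315 without A549 NT replicate 1 and 0.128 without B2B NT replicate 1.

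All 4 membrane restriction factors were lower in A549. The IFITM proteins hinder fusion of viral with cellular membranes, and BST2 (tetherin) holds budding virions at the cell surface. IFITM3 had 2.45 and 2.28 CPM in A549 NT, against 81.9 and 91.0 CPM in B2B NT (-5.19 ± 0.17, adjusted p = 1.36e-11). BST2 had 0.167 and 0.106 CPM in A549 NT, against 8.72 and 8.55 CPM in B2B NT (-5.92 ± 0.36, adjusted p = 3.83e-09). IFITM2 had 7.56 and 7.01 CPM in A549 NT, against 33.4 and 34.7 CPM in B2B NT (-2.22 ± 0.17, adjusted p = 3.3e-08). IFITM1 had 0 counts in A549 NT, against 3.21 and 4.72 CPM in B2B NT, so it was at least 49.4-fold higher in B2B NT, with the floor taken as 3 counts over the group. The IFITM genes are related in sequence, and IFITM1 and IFITM2 lie 643 bases apart on chromosome 11. Reads that did not align uniquely were tallied apart, so the levels of these genes may be undercounted. EPSTI1 had 0.111 and 0.159 CPM in A549 NT, against 13.7 and 13.4 CPM in B2B NT (-6.57 ± 0.31, adjusted p = 2.56e-10). ISG15, the ubiquitin-like modifier, had 1.06 and 0.69 CPM in A549 NT, against 16.8 and 17.1 CPM in B2B NT (-4.28 ± 0.30, adjusted p = 1.88e-08). TRIM22, a tripartite-motif antiviral ubiquitin ligase, had 0.889 and 0.637 CPM in A549 NT, against 12.9 and 12.7 CPM in B2B NT (-4.06 ± 0.35, adjusted p = 1.52e-07). None of these genes overlapped between lines, and all but IFITM2 stood at 2.45 CPM or less in A549 NT. DHX58, which encodes the RNA helicase LGP2, had 0.222 and 0.212 CPM in A549 NT, against 2.44 and 2.2 CPM in B2B NT (-3.38 ± 0.47). The dynamin-like GTPase MX1 had 0.278 and 0.372 CPM in A549 NT, against 2.3 and 2.69 CPM in B2B NT (-2.92 ± 0.45). Among the transcription factors, STAT2 had 19.8 and 19.5 CPM in A549 NT, against 82.0 and 82.2 CPM in B2B NT (-2.06 ± 0.11, adjusted p = 1.27e-09), and IRF9 and IRF7 were also called lower. The call for IRF7 was lost without A549 NT replicate 1 (adjusted p = 0.0631) or B2B NT replicate 2 (adjusted p = 0.0651).

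Per kilobase of exon, with the exons of all annotated transcripts of a gene merged, the order of levels also differed between lines; it depends on this length, which can exceed that of the transcript in use. In A549 NT the highest members were OAS3 at 10.5, OAS1 at 6.43 and IFI35 at 5.89 CPM per kilobase. In B2B NT they were IFITM3 at 30.4, IFITM2 at 21.2, ISG15 at 19.6 and IFI6 at 19.4 CPM per kilobase, the last 2 being too close to order. Summed over all 41 members, the level was 479.6 and 504.1 CPM in A549 NT, against 593 and 598.2 CPM in B2B NT. Without OAS1 and OAS3 it was 210.9 and 227.3 CPM in A549 NT, against 556.6 and 560 CPM in B2B NT.

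**Figure D2:**
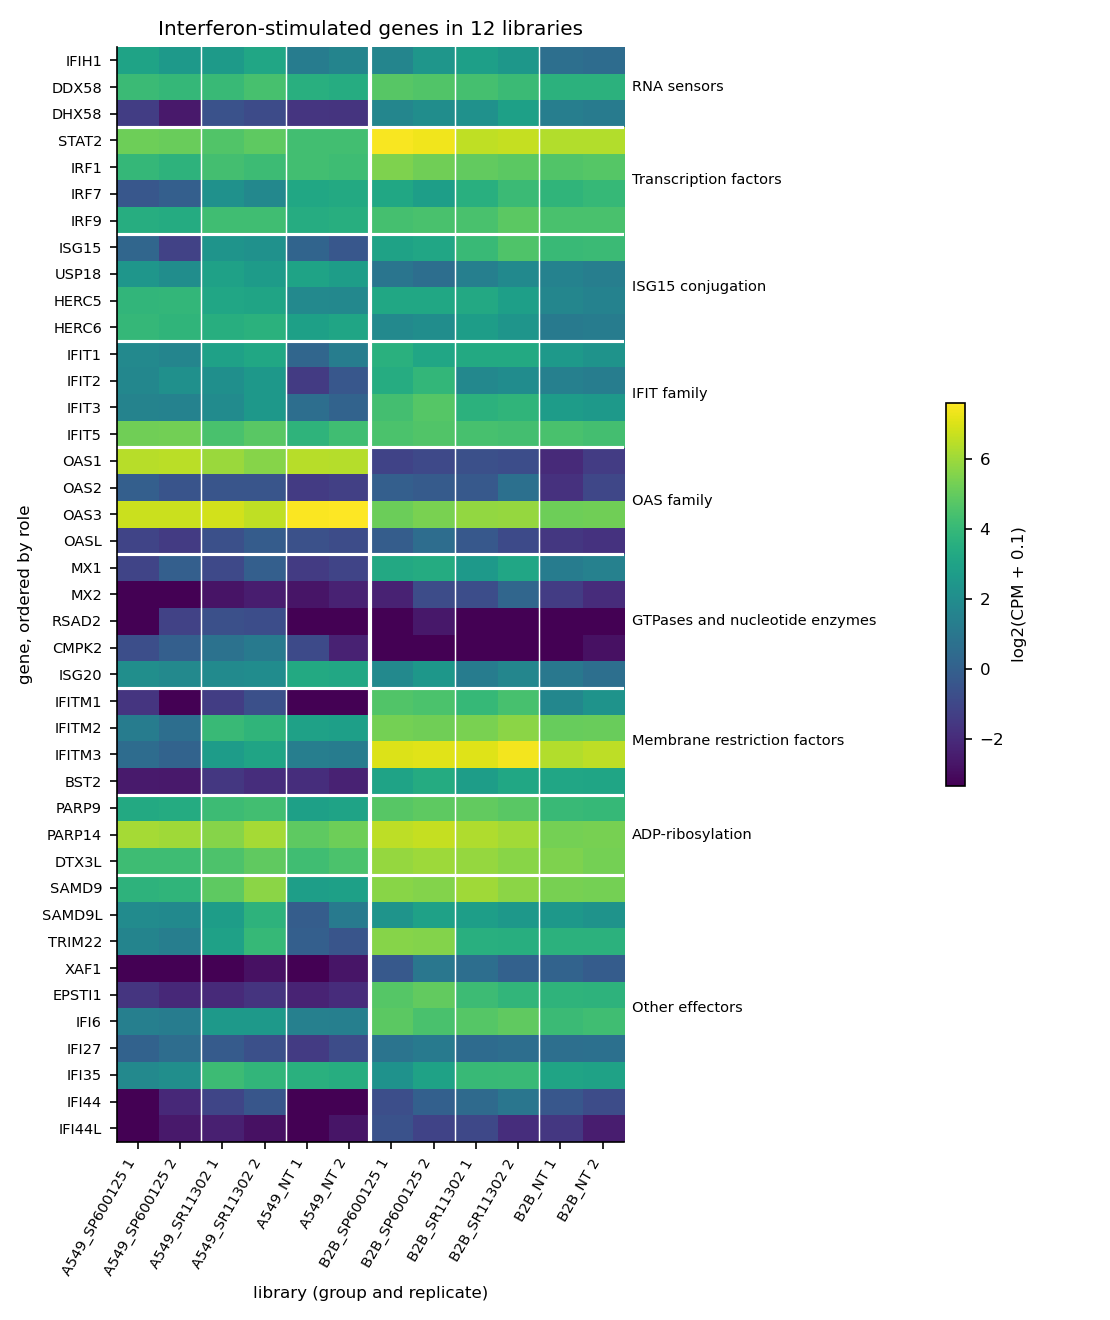
Level of each of the 41 members in each of the 12 libraries, as log2(CPM + 0.1), with rows ordered by role and columns by line and group (SP600125, SR11302, NT). OAS1 stands at 82.3 CPM or more in A549 NT and SP600125 libraries and at 0.535 CPM or less in every B2B library, while IFITM3 stands at 81.9 CPM or more in every B2B library and at 8.12 CPM or less in every A549 library.

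SR11302 was followed in A549 by higher levels of 22 of the 40 tested members, spread over 8 of the 9 role groups, and by lower levels of 4, namely IRF7, OAS1, OAS3 and ISG20. Over all tested genes, 14.8% were called higher and 13.0% lower. The members' median log2 fold change was 0.93, against 0.02 over all genes. All 4 tested IFIT genes and 3 of the 4 membrane restriction factors rose, whereas 2 of the 4 tested OAS genes fell and the others were not called. Without the 2 NT replicate 2 libraries the counts were 19 and 4. Within a line, the comparisons of the 2 inhibitors with NT share their NT libraries, so they are given side by side and not as independent of each other.

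Several of the strongest rises came from genes at low levels in A549 NT. TRIM22 had 7.53 and 15.7 CPM in SR11302-treated A549, against 0.889 and 0.637 CPM in A549 NT (log2 fold change 3.93 ± 0.35, adjusted p = 2.78e-06). SAMD9, a cytoplasmic antiviral factor, had 29.3 and 52.4 CPM after SR11302, against 6.89 and 7.38 CPM in NT (2.52 ± 0.23, adjusted p = 3.49e-06). Its neighbour on chromosome 7, SAMD9L, had 6.65 and 13.2 CPM after SR11302, against 0.834 and 2.18 CPM in NT (2.72 ± 0.39, adjusted p = 0.000145). For all 3 genes SR11302 replicate 2 was the higher library, and both treated libraries lay above both NT libraries. The IFIT proteins bind viral RNA and block its translation. IFIT2 had 4.18 and 5.61 CPM after SR11302, against 0.278 and 0.69 CPM in NT (3.31 ± 0.37, adjusted p = 1.96e-05). IFIT1 had 7.62 and 8.87 CPM after SR11302, against 1.11 and 2.34 CPM in NT (2.25 ± 0.28, adjusted p = 4.36e-05). IFIT3 had 3.74 and 5.56 CPM after SR11302, against 1.45 and 1.01 CPM in NT (1.93 ± 0.27, adjusted p = 0.000137). The fourth, IFIT5, had 22.0 and 27.5 CPM after SR11302, against 13.7 and 18.9 CPM in NT (0.60 ± 0.16, adjusted p = 0.0103), and its call was lost without SR11302 replicate 2 (adjusted p = 0.0504) or NT replicate 1 (adjusted p = 0.134), and on size with GC-adjusted offsets (0.488). The groups did not overlap for any of the 4.

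ISG15 had 4.95 and 4.52 CPM in SR11302-treated A549, against 1.06 and 0.69 CPM in NT (2.43 ± 0.34, adjusted p = 0.000106). HERC5, the main ligase that attaches ISG15 to newly made proteins, had 8.64 and 8.16 CPM after SR11302, against 3.45 and 3.29 CPM in NT (1.32 ± 0.19, adjusted p = 0.000138). USP18, which removes ISG15, had 7.53 and 6.28 CPM after SR11302, against 7.95 and 6.58 CPM in NT, a log2 difference of -0.08 that was not called. The ligase and the modifier therefore rose in A549 while no change of the protease was detected. HERC6 also rose, by 0.59 ± 0.17 on the log2 scale, but without NT replicate 1 its adjusted p was 0.137, and with GC-adjusted offsets the value was 0.492, under the threshold of size. Of the RNA sensors, IFIH1 had 6.02 and 8.66 CPM after SR11302, against 2.33 and 2.92 CPM in NT (1.48 ± 0.29, adjusted p = 0.00143), and DDX58, which encodes RIG-I, had 16.8 and 21.5 CPM, against 11.6 and 10.9 CPM (0.77 ± 0.15, adjusted p = 0.00182). Both sensors were higher in each treated library than in either NT library. Of the transcription factors, IRF9 had 19.0 and 19.0 CPM after SR11302, against 10.7 and 11.4 CPM in NT (0.78 ± 0.15, adjusted p = 0.00116). STAT2, its partner in ISGF3, had 24.6 and 29.2 CPM after SR11302, against 19.8 and 19.5 CPM in NT, and its log2 fold change of 0.45 stayed under the threshold of size.

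IFITM3 had 6.55 and 8.12 CPM in SR11302-treated A549, against 2.45 and 2.28 CPM in NT (1.64 ± 0.19, adjusted p = 2.77e-05). IFITM2 had 17.0 and 14.2 CPM after SR11302, against 7.56 and 7.01 CPM in NT (1.10 ± 0.17, adjusted p = 0.000265). IFITM1 had 19 counts in the treated libraries and 0 in NT, which makes it at least 5.24-fold higher after SR11302. The other members with 0 counts in A549 NT were RSAD2 (viperin), with 23 counts after SR11302 (at least 6.34-fold higher), and IFI44, with 24 (at least 6.62-fold higher). RSAD2 was no longer called without A549 NT replicate 1 (adjusted p = 0.0699) or replicate 2 (adjusted p = 0.0655) or with DESeq2 (adjusted p = 0.423). RSAD2 and CMPK2 overlap on opposite strands over 1079 bases, and the sources used here give no strand setting for the counting, so their reads cannot be told apart there. CMPK2, a mitochondrial nucleotide kinase, had 1.65 and 2.09 CPM after SR11302, against 0.445 and 0.106 CPM in NT. Its log2 fold change ranged from 2.06 to 4.07 over the 20 alternatives, 19 of which kept the call. Of the ADP-ribosylation group, PARP9 had 17.8 and 19.6 CPM after SR11302, against 7.39 and 8.07 CPM in NT (1.27 ± 0.14, adjusted p = 1.61e-05), and PARP14 also rose (0.83 ± 0.16). DTX3L, the ubiquitin ligase partner of PARP9, was not called (0.38, adjusted p = 0.0668), and the 2 genes overlap on opposite strands over 240 bases.

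The 4 members that fell in A549 stood at 9.06 CPM or more in every A549 NT library. OAS3 had 114 and 94.1 CPM in SR11302-treated A549, against 184 and 194 CPM in NT (-0.86 ± 0.12, adjusted p = 9.23e-05). ISG20 had 3.69 and 3.89 CPM after SR11302, against 9.84 and 9.4 CPM in NT (-1.34 ± 0.23, adjusted p = 0.00058). IRF7, the factor that amplifies interferon alpha genes, had 4.47 and 3.35 CPM after SR11302, against 9.06 and 9.72 CPM in NT (-1.27 ± 0.23, adjusted p = 0.000876). In each of these both treated libraries lay below both NT libraries. OAS1 had 62.2 and 49.3 CPM after SR11302, against 85.1 and 82.3 CPM in NT (-0.59 ± 0.13, adjusted p = 0.00294), and without SR11302 replicate 2 its log2 fold change was -0.404, under the threshold of size. Summed over all members, the level was 527.6 and 577.6 CPM after SR11302, against 479.6 and 504.1 CPM in NT. Without OAS1 and OAS3, which were both called lower here, it was 351.2 and 434.2 CPM after SR11302, against 210.9 and 227.3 CPM in NT.

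**Figure D3:**
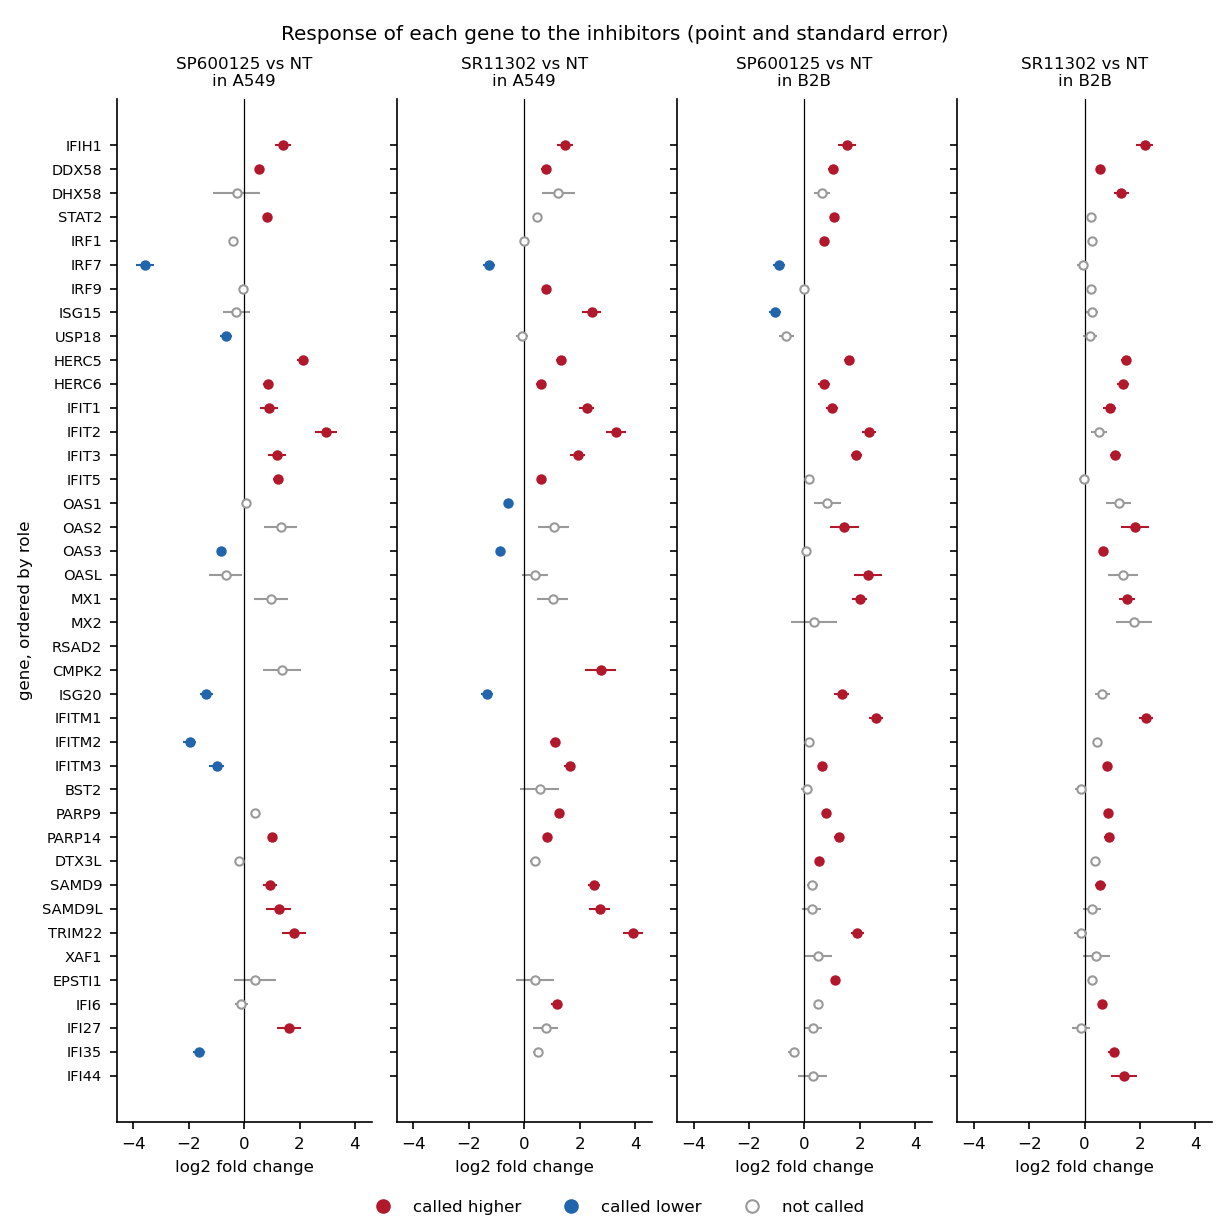
Log2 fold change of each tested member against NT, with its standard error, in 4 panels (SP600125 and SR11302 in A549 and in B2B), with genes of 3 or fewer counts in a group left out of that panel. Called members that are drawn are marked. Over all tested members the calls number 14 higher and 7 lower for SP600125 in A549, 22 and 4 for SR11302 in A549, 20 and 2 for SP600125 in B2B, and 18 and 0 for SR11302 in B2B. IFITM1, RSAD2 and IFI44, with 0 counts in A549 NT, are among the 22 but are not drawn in that panel.

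In B2B, SR11302 was followed by higher levels of 18 members, and no member was called lower. Over all tested genes, 11.4% were called higher and 11.1% lower. The members' median log2 fold change was 0.60, against 0.01 over all genes. The count of 0 lower was the same with DESeq2, and 0 members were lower at an unadjusted p under 0.05 in edgeR. All 3 RNA sensors rose, as did 2 genes each of the ISG15 conjugation, IFIT, OAS, membrane and ADP-ribosylation groups. Without the 2 NT replicate 2 libraries, 12 members were called higher.

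IFITM1 had 15.8 and 21.5 CPM in SR11302-treated B2B, against 3.21 and 4.72 CPM in B2B NT (2.22 ± 0.25, adjusted p = 5.38e-05). IFIH1 had 7.15 and 5.46 CPM after SR11302, against 1.48 and 1.34 CPM in NT (2.17 ± 0.31, adjusted p = 0.000223). MX1 had 5.76 and 8.85 CPM after SR11302, against 2.3 and 2.69 CPM in NT (1.53 ± 0.28, adjusted p = 0.00118). The treated libraries of all 3 stood above both NT libraries. HERC5 had 9.66 and 7.1 CPM after SR11302, against 3.16 and 2.81 CPM in NT (1.5 ± 0.18, adjusted p = 7.4e-05). HERC6 had 6.66 and 5.01 CPM after SR11302, against 2.16 and 2.32 CPM in NT (1.39 ± 0.20, adjusted p = 0.000258). ISG15 itself had 16.8 and 24.3 CPM after SR11302, against 16.8 and 17.1 CPM in NT, and was not called (0.27 ± 0.21, adjusted p = 0.361). HERC5 and HERC6 thus rose without overlap, while the lowest libraries of ISG15 in the 2 groups met at 16.8 CPM. DHX58 had 4.56 and 7.21 CPM after SR11302, against 2.44 and 2.2 CPM in NT (1.33 ± 0.28, adjusted p = 0.00292), and DDX58 rose by 0.57 ± 0.15 (adjusted p = 0.0126). IFIT3 had 12.9 and 14.1 CPM after SR11302, against 6.56 and 5.94 CPM in NT (1.11 ± 0.20, adjusted p = 0.00111), while IFIT2 had 3.33 and 3.89 CPM, against 2.63 and 2.4 CPM, and was not called (0.51, adjusted p = 0.189). Within the IFIT family the calls in B2B were therefore those of IFIT1 and IFIT3. IFI35, which binds the interferon-induced protein NMI, had 16.1 and 16.9 CPM after SR11302, against 8.19 and 7.78 CPM in NT (1.05 ± 0.19, adjusted p = 0.00132). OAS3 had 57.2 and 59.3 CPM after SR11302, against 36.2 and 37.9 CPM in NT (0.65 ± 0.12, adjusted p = 0.00133), so the gene moved down in A549 and up in B2B.

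Of the 18 calls in B2B, 11 held in every alternative, namely HERC5, HERC6, IFI35, IFIH1, IFIT3, IFITM1, IFITM3, MX1, OAS3, PARP14 and PARP9. Single libraries decided the others except DHX58, which was lost only without both NT replicate 2 libraries (adjusted p = 0.0588). DDX58 was lost without SR11302 replicate 1 (adjusted p = 0.106), NT replicate 1 (0.0726) or NT replicate 2 (0.0829). IFI44 was lost without any 1 of the 4 B2B libraries of this comparison, with adjusted p of 0.0508 to 0.218. IFI6 was lost without SR11302 replicate 2 (0.0593) or NT replicate 1 (0.0739), IFIT1 without NT replicate 2 (0.0977), and OAS2 without SR11302 replicate 2 (0.143) or NT replicate 1 (0.131). SAMD9, at an adjusted p of 0.0498, was lost without most single libraries, up to 0.296 without SR11302 replicate 1.

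The response to SR11302 differed between the lines for 11 members, tested as the A549 response minus the B2B response. Higher responses in A549 were called for 7 members (17.5%) and lower ones for 4 (10%), against 8.34% and 7.41% of all tested genes. The share of lower responses was thus near that of all genes. Of the 22 members called higher in A549 and the 18 in B2B, 13 were shared, which is 59.1% of the A549 list and 72.2% of the B2B list. Of all tested genes, those called higher in both lines were 24.7% of the A549 calls and 32.1% of the B2B calls. TRIM22 gave the largest of the called differences: after the rise in A549 given above, it had 11.8 and 11.4 CPM in SR11302-treated B2B, against 12.9 and 12.7 CPM in B2B NT, and the responses differed by 4.08 ± 0.44 (adjusted p = 3.49e-05). SAMD9 had 66.7 and 51.6 CPM in treated B2B, against 40.5 and 39.7 CPM in B2B NT (difference of responses 1.95 ± 0.30, adjusted p = 0.000758). OAS3 differed by -1.51 ± 0.17 (adjusted p = 4.71e-05), with opposite calls in the 2 lines. Without the 2 NT replicate 2 libraries the counts were 6 and 3, and without B2B NT replicate 1 only 2 responses were called lower.

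**Figure D4:**
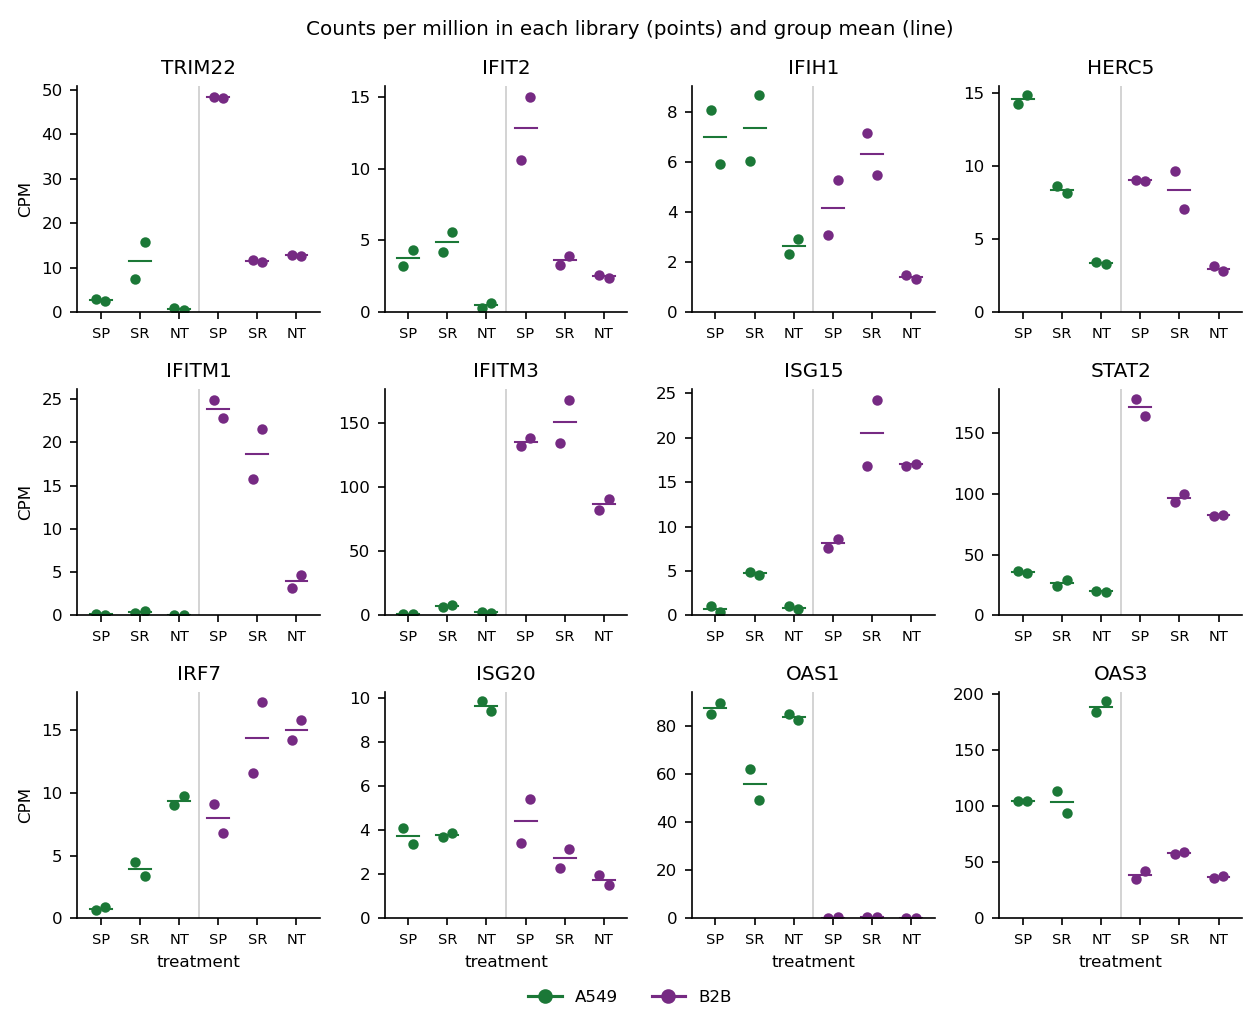
CPM of 12 members in each library, by line and group (SP600125, SR11302, NT), each point 1 library. TRIM22 is highest in A549 after SR11302 (7.53 and 15.7 CPM) and in B2B after SP600125 (48.4 and 48.2 CPM), and ISG20 in A549 is highest in NT (9.84 and 9.4 CPM).

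SP600125 divided the members in A549: the IFIT genes, HERC5, HERC6, PARP14 and STAT2 were among 14 that rose, while IRF7, IFITM2, IFITM3, IFI35, ISG20, OAS3 and USP18 made up the 7 that fell. Over all tested genes, 23.9% were called higher and 25.0% lower, so the share of members called lower (7 of 40) was below that of all genes. The members' median log2 fold change was 0.47, against 0.02 over all genes. Their summed level was 497 and 487.2 CPM after SP600125, against 479.6 and 504.1 CPM in NT, and the groups overlapped. The counts were 12 and 7 without the 2 NT replicate 2 libraries. In this comparison fold changes fell with the GC content of the transcript (Spearman's rho -0.39 across 15779 genes, which are not independent), and the members' median GC content was 45.2%, against 48.2% over all genes. With GC-adjusted offsets 10 members were called higher and 6 lower. The share called higher, 10 of 40, was then near the 23.9% of all genes called higher without these offsets.

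IFIT2 had 3.2 and 4.34 CPM in SP600125-treated A549, against 0.278 and 0.69 CPM in NT (2.94 ± 0.40, adjusted p = 3.25e-05). IFIT5 had 37.6 and 38.1 CPM after SP600125, against 13.7 and 18.9 CPM in NT (1.21 ± 0.16, adjusted p = 2.97e-05). IFIT3 had 2.83 and 2.76 CPM after SP600125, against 1.45 and 1.01 CPM in NT (1.19 ± 0.31, adjusted p = 0.00482). In these 3 genes both treated libraries lay above both NT libraries. IFIT1 rose as well (0.89 ± 0.32, adjusted p = 0.0276), but its adjusted p was 0.117 without SP600125 replicate 1, 0.0588 without SP600125 replicate 2 and 0.244 without NT replicate 1, and with GC-adjusted offsets the value was 0.531 (adjusted p = 0.156). HERC5 had 14.3 and 14.9 CPM after SP600125, against 3.45 and 3.29 CPM in NT (2.11 ± 0.19, adjusted p = 9.13e-07). ISG15 had 1.12 and 0.345 CPM after SP600125, against 1.06 and 0.69 CPM in NT, and was not called (-0.28), so the ligase rose without a detected change of the modifier. USP18 had 5.22 and 4.0 CPM after SP600125, against 7.95 and 6.58 CPM in NT (-0.66 ± 0.23, adjusted p = 0.0233), a call lost without SP600125 replicate 2 (adjusted p = 0.192) or NT replicate 1 (0.156). The ligase and the protease thus moved in opposite directions. IFIH1 had 8.05 and 5.93 CPM after SP600125, against 2.33 and 2.92 CPM in NT (1.40 ± 0.30, adjusted p = 0.00119). TRIM22 had 2.91 and 2.48 CPM after SP600125, against 0.889 and 0.637 CPM in NT (1.81 ± 0.44, adjusted p = 0.00302). PARP14 had 69.8 and 64.9 CPM after SP600125, against 29.7 and 36.8 CPM in NT (1.02 ± 0.16, adjusted p = 0.00012). IFIH1, TRIM22 and PARP14 did not overlap between treated and NT libraries. SAMD9L had 3.73 and 3.52 CPM after SP600125, against 0.834 and 2.18 CPM in NT (1.25 ± 0.45, adjusted p = 0.0268), and its adjusted p was 0.0882 without SP600125 replicate 1, 0.071 without SP600125 replicate 2 and 0.206 without NT replicate 1, and with GC-adjusted offsets the value was 0.822 (adjusted p = 0.067).

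Of the transcription factors, STAT2 and IRF7 moved in opposite directions. STAT2 had 36.2 and 34.5 CPM in SP600125-treated A549, against 19.8 and 19.5 CPM in NT (0.84 ± 0.12, adjusted p = 3.51e-05). IRF7 had 0.671 and 0.896 CPM after SP600125, against 9.06 and 9.72 CPM in NT (-3.57 ± 0.32, adjusted p = 1.1e-06), the largest of the 7 called falls. The membrane restriction factors had a summed level of 3.949 and 2.55 CPM after SP600125, against 10.17 and 9.398 CPM in NT. Within the group, IFITM2 had 2.31 and 1.45 CPM after SP600125, against 7.56 and 7.01 CPM in NT (-1.96 ± 0.23, adjusted p = 9.55e-06). IFITM3 had 1.34 and 1.03 CPM after SP600125, against 2.45 and 2.28 CPM in NT (-0.99 ± 0.28, adjusted p = 0.00717), and the call was lost without SP600125 replicate 2 (adjusted p = 0.0748), with GC-adjusted offsets (-0.572, adjusted p = 0.125) and with the replicate block and these offsets (-0.582, adjusted p = 0.0823). The treated libraries of both IFITM genes lay below the NT libraries. IFI35 had 3.43 and 4.07 CPM after SP600125, against 12.0 and 11.1 CPM in NT (-1.62 ± 0.23, adjusted p = 4.25e-05). ISG20 had 4.1 and 3.38 CPM after SP600125, against 9.84 and 9.4 CPM in NT (-1.36 ± 0.24, adjusted p = 0.000296). OAS3 had 105 and 105 CPM after SP600125, against 184 and 194 CPM in NT (-0.85 ± 0.12, adjusted p = 3.79e-05), whereas OAS1 had 85.0 and 89.6 CPM, against 85.1 and 82.3 CPM, and was not called (0.06). Treated and NT libraries of IFI35, ISG20 and OAS3 did not overlap, while those of OAS1 did. Single libraries also decided DDX58 (0.54 ± 0.16, with adjusted p = 0.075 without SP600125 replicate 1 and 0.0643 without NT replicate 2, and a value of 0.112, adjusted p = 0.477, with GC-adjusted offsets) and IFI27 (1.62 ± 0.44, with adjusted p = 0.067 without SP600125 replicate 2 and 0.0624 without NT replicate 1). The endothelial markers PECAM1, VWF and CDH5 summed to 13.8 to 15.0 CPM in these treated libraries, against 0.222 to 0.265 CPM in A549 NT, and their part in the results was not tested.

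In B2B, SP600125 was followed by higher levels of 20 members and lower levels of 2, IRF7 and ISG15. Over all tested genes, 21.2% were called higher and 22.6% lower. The members' median log2 fold change was 0.67, against 0.01 over all genes. Members of all 9 role groups rose, among them 3 of the 4 IFIT genes and all 3 genes of the ADP-ribosylation group. The counts were 17 and 2 when the 2 NT replicate 2 libraries were left out. The same endothelial markers summed to 6.76 to 10.0 CPM after SP600125, against 0.774 to 0.814 CPM in B2B NT, and their part here was not tested either.

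IFITM1 had 24.9 and 22.8 CPM in SP600125-treated B2B, against 3.21 and 4.72 CPM in NT (2.58 ± 0.25, adjusted p = 3.87e-06). IFITM3 had 132 and 138 CPM after SP600125, against 81.9 and 91.0 CPM in NT (0.64 ± 0.13, adjusted p = 0.000841). BST2 had 8.0 and 10.3 CPM after SP600125, against 8.72 and 8.55 CPM in NT, and the groups overlapped. IFIT2 had 10.6 and 15.0 CPM after SP600125, against 2.63 and 2.4 CPM in NT (2.34 ± 0.26, adjusted p = 6.82e-06). IFIT3 had 20.1 and 26.0 CPM after SP600125, against 6.56 and 5.94 CPM in NT (1.88 ± 0.20, adjusted p = 4.26e-06). In both IFIT genes the treated libraries lay well above NT. IFIT1 rose by 1.00 ± 0.23 (adjusted p = 0.00257, and 0.0613 without SP600125 replicate 1), and IFIT5, with 22.7 and 25.0 CPM after SP600125, against 22.3 and 20.3 CPM in NT, was not called. TRIM22 had 48.4 and 48.2 CPM after SP600125, against 12.9 and 12.7 CPM in NT (1.91 ± 0.23, adjusted p = 1.51e-05). MX1 had 9.67 and 10.3 CPM after SP600125, against 2.3 and 2.69 CPM in NT (2.0 ± 0.27, adjusted p = 4.21e-05). HERC5 had 9.1 and 9.01 CPM after SP600125, against 3.16 and 2.81 CPM in NT (1.60 ± 0.19, adjusted p = 1.06e-05). In these 3 genes the replicates lay close together and far from NT.

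IFIH1 had 3.07 and 5.29 CPM in SP600125-treated B2B, against 1.48 and 1.34 CPM in NT (1.55 ± 0.33, adjusted p = 0.00128). DDX58 had 27.4 and 24.7 CPM after SP600125, against 13.0 and 12.8 CPM in NT (1.02 ± 0.15, adjusted p = 8.58e-05). Both RNA sensors that signal through MAVS thus rose. STAT2 had 178 and 164 CPM after SP600125, against 82.0 and 82.2 CPM in NT (1.06 ± 0.11, adjusted p = 3.03e-06), and IRF1, a factor induced by interferon gamma, had 45.2 and 37.1 CPM, against 24.5 and 25.9 CPM (0.71 ± 0.14, adjusted p = 0.00066). ISG20 had 3.43 and 5.42 CPM after SP600125, against 1.96 and 1.51 CPM in NT (1.35 ± 0.27, adjusted p = 0.000864). PARP14 had 90.8 and 99.5 CPM after SP600125, against 40.1 and 40.6 CPM in NT (1.24 ± 0.16, adjusted p = 2.43e-05). The fallen members were ISG15, with 7.64 and 8.64 CPM after SP600125, against 16.8 and 17.1 CPM in NT (-1.06 ± 0.22, adjusted p = 0.00126), and IRF7, with 9.1 and 6.82 CPM, against 14.2 and 15.8 CPM (-0.91 ± 0.21, adjusted p = 0.00238). With GC-adjusted offsets the fall of IRF7 was -0.318 (adjusted p = 0.0929) and was not called. HERC6 (0.70 ± 0.22) was lost without SP600125 replicate 2 (adjusted p = 0.0818), NT replicate 1 (0.0756) or NT replicate 2 (0.0505). OAS2 (1.44 ± 0.52) was lost without SP600125 replicate 1 (0.134), SP600125 replicate 2 (0.066) or NT replicate 1 (0.2). DTX3L (0.54 ± 0.14) was lost without NT replicate 2 (adjusted p = 0.0734), and its log2 fold change was 0.479 without SP600125 replicate 2 and 0.497 without A549 SR11302 replicate 2.

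The response to SP600125 was higher in A549 than in B2B for 1 member, IFIT5, and lower for 9, against 12.1% and 13.1% of all tested genes. ISG20 fell in A549 and rose in B2B, and its responses differed by -2.71 ± 0.36 (adjusted p = 0.000158). IFITM3 also carried opposite calls, with a difference of -1.64 ± 0.30 (adjusted p = 0.00167), but its call in A549 was lost with GC-adjusted offsets, as given above. IRF7 fell in both lines, but further in A549, with a difference of -2.66 ± 0.40 (adjusted p = 0.000401). IFITM2 fell in A549 and had 39.9 and 37.2 CPM in treated B2B, against 33.4 and 34.7 CPM in B2B NT (difference of responses -2.14 ± 0.28, adjusted p = 0.000117). Of the 14 members that rose in A549 and the 20 that rose in B2B, 10 were shared, which is 71.4% of the A549 list and 50% of the B2B list. Over all tested genes the shared calls were 48.3% of the A549 calls and 54.3% of the B2B calls, so the share of the B2B list was near that of all genes. Without the 2 NT replicate 2 libraries the counts were 1 and 6, and 2 responses were higher in A549 without either SR11302 library of A549.

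**Figure D5:**
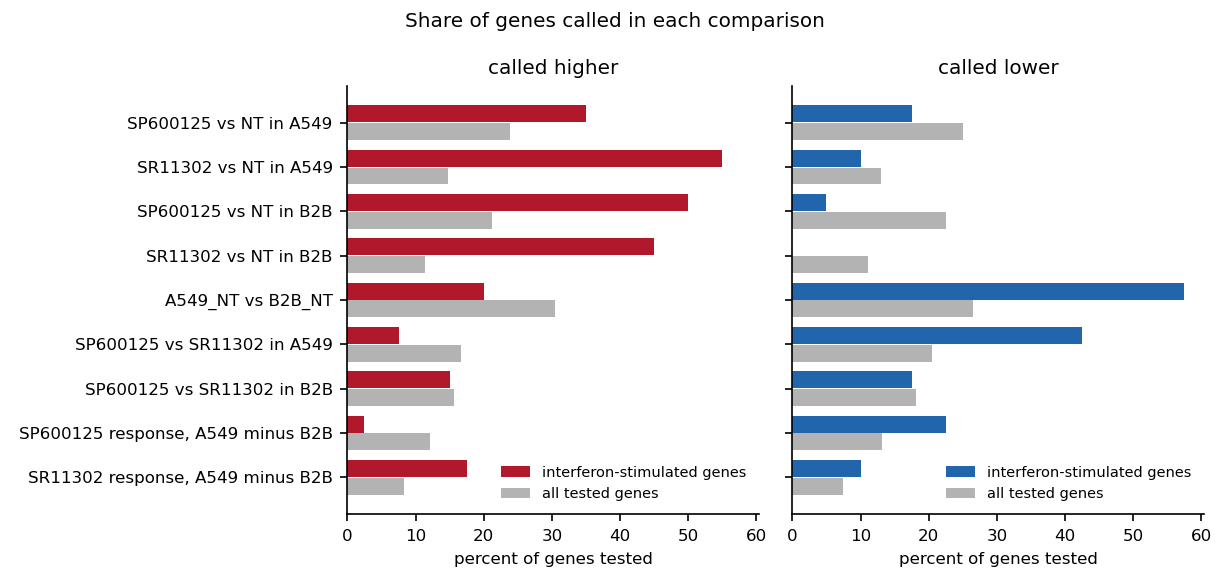
Percent of the 40 tested members and of all 16373 tested genes called higher or lower in each comparison. The comparisons are each inhibitor against NT in each line, A549 NT against B2B NT, SP600125 against SR11302 in each line, and the A549 response minus the B2B response for each inhibitor. For SR11302 in A549, 22 of 40 members were called higher, against 14.8% of all genes, and for SP600125 in A549, 7 of 40 members were called lower, against 25.0% of all genes.

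The inhibitors were also compared with each other within a line. Their doses differ, 50 µM for SP600125 and 10 µM for SR11302, so the values stand side by side and are not a comparison of potency. In A549, 3 members were higher after SP600125 than after SR11302 and 17 lower, against 16.6% and 20.5% of all tested genes. Wide gaps were found in IFITM2, IFITM3 and ISG15. IFITM2 had 2.31 and 1.45 CPM after SP600125, against 17.0 and 14.2 CPM after SR11302 (-3.06 ± 0.21, adjusted p = 3.73e-07). IFITM3 had 1.34 and 1.03 CPM after SP600125, against 6.55 and 8.12 CPM after SR11302 (-2.63 ± 0.23, adjusted p = 2.14e-06). ISG15 had 1.12 and 0.345 CPM after SP600125, against 4.95 and 4.52 CPM after SR11302 (-2.71 ± 0.37, adjusted p = 7.11e-05). The members that were higher after SP600125 were HERC5 (0.80 ± 0.17), IFIT5 (0.61 ± 0.16) and OAS1 (0.65 ± 0.13). With GC-adjusted offsets only 1 of them was called. The calls of IFIT5 and OAS1 were lost on size without 1 SR11302 library each, IFIT5 at 0.46 without replicate 1 and OAS1 at 0.46 without replicate 2. Other lower members included IFI35 (-2.11 ± 0.22), IRF7 (-2.30 ± 0.35), TRIM22 (-2.12 ± 0.30), SAMD9 (-1.58 ± 0.22), SAMD9L (-1.46 ± 0.36), IFIT1 (-1.35 ± 0.26) and IFI6 (-1.27 ± 0.21).

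In B2B, 6 members (15%) were higher after SP600125 than after SR11302 and 7 (17.5%) lower, against 15.6% and 18.1% of all tested genes. Both shares were thus near those of all genes, and the members' median log2 difference was 0.04. TRIM22 had 48.4 and 48.2 CPM after SP600125, against 11.8 and 11.4 CPM after SR11302 (2.06 ± 0.23, adjusted p = 1.75e-05). IFIT2 had 10.6 and 15.0 CPM after SP600125, against 3.33 and 3.89 CPM after SR11302 (1.83 ± 0.25, adjusted p = 7.41e-05). EPSTI1 had 26.3 and 31.8 CPM after SP600125, against 18.0 and 14.5 CPM after SR11302 (0.83 ± 0.15, adjusted p = 0.000722). TRIM22 thus stood lower after SP600125 than after SR11302 in A549 and higher in B2B. IFI35 had 4.63 and 7.67 CPM after SP600125, against 16.1 and 16.9 CPM after SR11302 (-1.43 ± 0.20, adjusted p = 9.05e-05). ISG15 had 7.64 and 8.64 CPM after SP600125, against 16.8 and 24.3 CPM after SR11302 (-1.33 ± 0.22, adjusted p = 0.000354). ISG15 and IFI35 were lower after SP600125 than after SR11302 in both lines. With scaling by library size only, 8 were called higher and 6 lower, and without SR11302 replicate 2 or SP600125 replicate 1 only 4 were called lower.

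The ISRE core was present both in members that rose and in members that fell. In A549 after SR11302, 12 of 19 tested members with a core rose and 2 fell, and 7 of 12 with a window but no core rose and 1 fell, where 14.8% of all tested genes were called higher and 13.0% lower. In B2B after SR11302, 12 of 19 with a core rose, against 4 of 12 without, where 11.4% of all tested genes were called higher. After SP600125 in A549, 8 of 19 with a core rose and 3 fell, against 4 and 1 of 12 without, where 23.9% of all tested genes were called higher and 25.0% lower. After SP600125 in B2B 11 of 19 rose and 1 fell, against 5 and 0 of 12, where 21.2% of all tested genes were called higher and 22.6% lower. OAS3 and ISG20, whose cores are printed above, fell in A549 after SR11302 and after SP600125, while IFIT1 and HERC5, whose windows hold the same motif, rose. The differences between these shares were not tested. Only the exact spelling was searched, so the split does not separate members with and without any response element. The windows of DDX58, OAS1, RSAD2 and XAF1, counted as without a core, hold GAAACGAAA, which has a shorter spacer.

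Of the tested members, BST2, MX2 and XAF1 were not called against NT for either inhibitor in either line. BST2 reached at most 0.243 CPM in any A549 library and stood at 6.7 to 10.3 CPM in B2B libraries. MX2, a paralogue of MX1, reached at most 1.13 CPM in any library, and XAF1, which binds the apoptosis inhibitor XIAP, at most 1.89 CPM.

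The interferon genes themselves were nearly silent. Of 22 ligand genes, 12 had no count in any library, and only IFNE, an epithelial type I interferon, passed the filter. Apart from IFNE, no ligand exceeded 0.287 CPM in any library, IFNB1 had 1 count in all and IFNG 0. A count of 0 over these libraries limits detection and does not show absence. IFNE had 4.47 and 4.14 CPM in SP600125-treated A549, against 1.78 and 2.65 CPM in A549 NT (0.95 ± 0.29, adjusted p = 0.0119), and 2.86 and 1.76 CPM in SP600125-treated B2B, against 5.22 and 4.56 CPM in B2B NT (-1.06 ± 0.27, adjusted p = 0.00474).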

How the data were processed

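Libraries were made from the polyadenylated fraction of DNase-treated TRIzol extracts (KAPA mRNA HyperPrep). The authors aligned reads with STAR 2.7.10a to hg38 and counted them per gene with HTSeq 1.99.2, and the deposited values are whole-number read counts per gene symbol, not normalized. The sources used here give no annotation version, strand setting or read length. The members are listed by symbol with no measured value in the rule, but they and the gene lists were chosen with earlier results of these data known.

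Genes were filtered with edgeR's filterByExpr and scaled by TMM. The quasi-likelihood test (edgeR 4.0.16, limma 3.58.1, R 4.3.3) was fitted over all 12 libraries with 6 groups (6 residual degrees of freedom) and tested on simulated data, with p-values adjusted by Benjamini-Hochberg over 16373 genes. Responses of the lines were compared by an interaction contrast. Folds against groups at 0 used a floor of 3 counts over the group, and intervals cover counting error only. Depth, 13969766 to 24917854 gene counts, limits precision for genes under about 1 CPM.

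Values in every library were given for up to 8 called members per direction with the largest fold change and, in the group where they were higher, a mean of 2 CPM or more, plus members that describe a role group. Alternatives were RLE or library-size scaling, no filter, DESeq2 1.42.0, a replicate block, GC-adjusted offsets, the block with these offsets, omission of both NT replicate 2 libraries, and omission of each library. With 1 library left in a group, it was assumed to vary like the others. Transcript GC content was matched for 24531 of 26485 symbols, 1370 of them by an older symbol, and for 15779 of the tested genes. Reads assigned to no gene were left out of library totals.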

Additional observations from a re-analysis of the deposited data

Results flagged for a closer look

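A direct test of the difference between A549 and B2B, the A549 response minus the B2B response in edgeR's quasi-likelihood fit, called 21 responses of 17 members. For SR11302 the response in A549 was higher for TRIM22 (4.08 on the log2 scale), IFIT2 (2.80), SAMD9L (2.44), ISG15 (2.16), SAMD9 (1.95), IFIT1 (1.34) and IFITM3 (0.83). It was lower for ISG20 (-1.98), OAS1 (-1.81), OAS3 (-1.51) and IRF7 (-1.20). The differences for IFIT2, ISG15, ISG20, OAS3, SAMD9, SAMD9L and TRIM22 were called in every alternative. OAS1 rests on 22 counts in SR11302-treated B2B, against 10 in B2B NT, and its adjusted p was 0.101 without B2B NT replicate 1, 0.0721 without B2B SR11302 replicate 1 and 0.0532 without B2B SR11302 replicate 2. IFIT1, IFITM3 and IRF7 also lost their call without single libraries. Their adjusted p reached 0.137 for IFIT1 without A549 NT replicate 1, 0.0924 for IFITM3 without A549 NT replicate 2 and 0.0757 for IRF7 without B2B SR11302 replicate 2.

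For SP600125 the response in A549 was higher for IFIT5 (1.05). It was lower for OASL (-2.96), ISG20 (-2.71), IRF7 (-2.66), IFITM2 (-2.14), IFITM3 (-1.64), IFI35 (-1.23), IRF1 (-1.12), OAS3 (-0.91) and DTX3L (-0.72). The differences for IFIT5, IFITM2, IFITM3, IRF1, IRF7, ISG20 and OAS3 were called in every alternative. OASL stayed under 1 CPM in every A549 library, and its adjusted p was 0.054 without A549 SP600125 replicate 2, 0.0558 without A549 NT replicate 1 and 0.0529 without B2B NT replicate 2. IFI35 lost its call without A549 SP600125 replicate 1 (0.0546), and DTX3L without several single libraries, up to 0.0999 without B2B NT replicate 2.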

How the results depend on the processing

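All 20 alternatives were run for the 9 comparisons, and no called member changed direction in any of them. Of 360 counts of called members, 351 stayed within 1.5 times the reported count, and of 3439 values of single called members, 3248 kept their call and 191 lost it. The number of responses to SP600125 called higher in A549 was 3 without the filter, against 1 as reported, and the number higher after SP600125 than after SR11302 in A549 was 1 with GC-adjusted offsets and 1 with the replicate block and these offsets, against 3; the cause was not tested. Leaving out each library in turn gave 5 to 8 members higher in A549 NT than in B2B NT, 2 to 4 lower responses to SR11302 and 1 to 2 higher responses to SP600125 in A549 than in B2B, and 4 to 8 members lower after SP600125 than after SR11302 in B2B. The correlation of same-numbered deviations was -0.07 to 0.24 within a line and -0.26 to 0.05 between lines. These values are too weak a guide to settle whether same-numbered libraries were handled together. The replicate block left all 18 counts within 1.5 times and changed 0 of 172 single calls. Scaling by library size only shifted the median log2 fold change of all genes to 0.14 for SR11302 and 0.10 for SP600125 in A549 and to 0.15 for SP600125 in B2B, where 27.1% of all genes were then called higher and 18.8% lower; in A549 the split for SR11302 was 19.5% and 9.91%. Members then numbered 24 higher and 3 lower for SR11302 in A549 and 22 and 2 for SP600125 in B2B. Genes under about 1 CPM, such as RSAD2 and IFI44 in A549 and CMPK2 in A549 NT, are limited by depth.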

Other observations

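Of the pathway genes outside the 41 members, TMEM173, the DNA-sensing adaptor STING, was called higher against NT for both inhibitors in both lines. The 8 tested genes of its sensing list, which also holds TLR3, moved both ways. After SR11302, 2 rose and 0 fell in A549 (14.8% and 13.0% of all tested genes), and 2 rose and 1 fell in B2B (11.4% and 11.1%). After SP600125, 2 rose and 3 fell in A549 (23.9% and 25.0%), and 1 rose and 1 fell in B2B (21.2% and 22.6%). TMEM173 had 1.34 and 1.59 CPM in SP600125-treated A549 and 2.33 and 3.6 CPM in SR11302-treated A549, against 0.333 and 0.159 CPM in A549 NT (log2 fold changes 2.55 ± 0.46 and 3.58 ± 0.38 in edgeR, adjusted p = 0.000324 and 1.17e-05). In B2B it had 50.5 and 44.3 CPM after SP600125 and 24.2 and 28.3 CPM after SR11302, against 11.8 and 11.6 CPM in NT (2.02 ± 0.17 and 1.16 ± 0.17, adjusted p = 6.55e-07 and 0.000263). UBE2L6, the conjugating enzyme of the ISG15 pathway, had 29.4 and 36.4 CPM after SP600125 and 23.8 and 25 CPM after SR11302 in A549, against 11.7 and 10.5 CPM in NT. In B2B it had 47.8 and 49.2 CPM after SP600125 and 35 and 37.1 CPM after SR11302, against 11.9 and 14.4 CPM in NT. All 4 of its rises were called (adjusted p between 2.57e-07 and 5.79e-05 in edgeR). In both genes no treated library overlapped NT, and the 2 inhibitors share their NT libraries.

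LGALS3BP, a secreted glycoprotein induced by interferon, had 150 and 164 CPM after SR11302 in A549, against 43.4 and 40.2 CPM in NT (1.91 ± 0.11, adjusted p = 5.5e-08), and 20 and 20 CPM after SP600125 (-1.06 ± 0.12, adjusted p = 7.08e-06). TLR3, an endosomal sensor of double-stranded RNA, had 2.43 and 3.1 CPM after SR11302 in A549, against 0.445 and 0.903 CPM in NT (2.02 ± 0.48, adjusted p = 0.0054), and 3.37 and 2.42 CPM after SR11302 in B2B, against 1.44 and 0.814 CPM in NT (1.39 ± 0.43, adjusted p = 0.0255). SOCS1, an inhibitor of JAK kinases, had 5 and 2 counts after SR11302 in B2B, against 22 and 35 in NT (-2.86 ± 0.74, adjusted p = 0.0108). Of the 20 tested genes of the list of other interferon-induced genes, 10 (50%) rose after SR11302 in A549, against 14.8% of all tested genes. After SP600125 in A549, 4 (20%) rose and 6 (30%) fell, near the 23.9% and 25.0% of all tested genes. In B2B, 6 (30%) rose and 1 (5%) fell after SR11302, against 11.4% and 11.1%. There 5 (25%) rose and 4 (20%) fell after SP600125, near the 21.2% and 22.6% of all tested genes.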
